A study of Mus musculus with 6 samples.

Results

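The 9 genes described here belong to interferon signalling and to the presentation of antigen that interferon controls: Ifnar1, Ifnar2, Ifngr1, Stat2, Irf9, Irf1, Ifit1, B2m and Tap1. They were chosen by name, and all 9 were found among the 19613 genes of the table. Their levels were measured on 6 Affymetrix mouse exon arrays of embryoid bodies, aggregates grown from HBG3 embryonic stem cells that carry an HB9-eGFP reporter and were differentiated toward spinal motor neurons. The methods describe an exposure from day 6 of differentiation, for 24 h, to medium with 5% serum. They give these conditions for serum of an ALS model, and whether they held in full for the serum used here is not stated. The serum came from male carriers of the Huntington's disease strain B6CBA-Tg(HDexon1)62Gpb/3J at 10 weeks of age. That strain carries a fragment of the human huntingtin gene in its own tissues, whereas the cultured cells did not carry it. The labels call the fluid plasma, and the series title and the methods call it serum. All 6 arrays form 1 group, numbered replicates 2, 4, 5, 6, 7 and 8, with no control arrays analysed here. The values therefore describe which of these genes gave a signal above background under this serum, and not a response to it. The methods speak of 6 serum samples for this model, and of assays run in sets, each set on its own batch of differentiated cells. Which batch each of these arrays came from is not stated in the sources used here, so the p-values measure the spread between these arrays, which may be technical in part.

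Interferons are cytokines that put cells into an antiviral state. Type I interferons bind a receptor made of Ifnar1 and Ifnar2, and interferon gamma binds Ifngr1 and Ifngr2. Janus kinases on the receptors phosphorylate STAT proteins. Under type I interferon, Stat2 joins Irf9 in the complex ISGF3, which binds interferon-stimulated response elements (ISRE) in the promoters of target genes such as Ifit1. Interferon gamma acts on its target genes through gamma-activated sites (GAS), as in the promoter of Irf1. Irf1 in turn is known to drive genes of antigen presentation, among them B2m and Tap1. Neurons are known for a low surface level of class I antigen-presenting molecules.

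Promoter sequences are shown for Ifit1 and Irf1, the genes read out below as targets of these pathways, and for B2m and Tap1. Each run holds the 250 bases before the RefSeq transcription start, on the strand of the gene (build GRCm38.p6, plus strand in each case), and for Irf1 it is the window of the first of 2 listed starts. Capitals mark matches to GAAANNGAAA, the core of the ISRE, on either strand, or to TTCNNNGAA, the core of a GAS, which reads the same on both strands. No printed run holds both motifs, so they do not overlap here.
Ifit1, chr19:34640639-34640888: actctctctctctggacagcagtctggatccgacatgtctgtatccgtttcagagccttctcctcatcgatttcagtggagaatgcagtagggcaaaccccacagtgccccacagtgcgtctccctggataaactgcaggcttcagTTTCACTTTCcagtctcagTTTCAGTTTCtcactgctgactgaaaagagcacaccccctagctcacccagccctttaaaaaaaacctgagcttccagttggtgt
Irf1, chr11:53769764-53770013: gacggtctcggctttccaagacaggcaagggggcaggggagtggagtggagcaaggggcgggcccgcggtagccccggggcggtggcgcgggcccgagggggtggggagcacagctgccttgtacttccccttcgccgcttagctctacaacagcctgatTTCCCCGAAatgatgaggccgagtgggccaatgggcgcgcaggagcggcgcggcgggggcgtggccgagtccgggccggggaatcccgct
B2m, chr2:122147437-122147686: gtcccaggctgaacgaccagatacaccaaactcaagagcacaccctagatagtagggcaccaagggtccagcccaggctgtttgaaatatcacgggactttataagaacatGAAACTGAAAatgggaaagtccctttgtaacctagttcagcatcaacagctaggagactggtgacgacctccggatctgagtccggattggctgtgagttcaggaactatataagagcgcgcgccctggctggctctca
Tap1, chr17:34187306-34187555: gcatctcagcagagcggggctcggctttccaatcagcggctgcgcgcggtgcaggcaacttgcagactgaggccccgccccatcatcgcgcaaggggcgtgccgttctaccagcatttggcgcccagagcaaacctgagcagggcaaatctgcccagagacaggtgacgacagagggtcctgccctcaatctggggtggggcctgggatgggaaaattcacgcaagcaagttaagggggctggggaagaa

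In windows reaching from 250 bases before to 50 bases after the start, the ISRE core was found in 3.44% of all 32851 windows and the GAS core in 8.30%. The window of Ifit1 held 2 ISRE cores, which began 104 and 85 bases before the start, and 0.225% of all windows held 2 or more. The window of B2m held 1 ISRE core, 139 bases before the start, and that of Irf1 held 1 GAS core, 90 bases before the start. Stat2 held 1 ISRE core with the letters TTTCAGTTTC, the same 10 letters as the second match in Ifit1. Ifnar1 and Ifnar2 each held 1 GAS core. The windows of Ifngr1, Irf9 and Tap1 held neither motif, nor did the second window of Irf1. These matches describe letters in the reference genome and not the binding of a factor.

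Background was taken from the 1032 olfactory receptor genes on the array, a family whose use is largely confined to the nose. In each array the 95th percentile of their log2 intensities served as the background level. It was 7.48 in replicate 2, 7.42 in replicate 4, 7.60 in replicate 5, 7.58 in replicates 6 and 7, and 7.26 in replicate 8. The background of replicate 8 was the lowest. The distance of a gene is its log2 intensity minus the background of the same array, so that a positive distance lies above background. The mean distance was tested against 0 with limma over all genes, with Benjamini-Hochberg adjustment, and a gene was called above or below background at an adjusted p under 0.05. Of all 19613 genes, 62.6% were called above and 32.9% below. The spread between arrays that the test takes in is that of the distance. It includes movement of the background level, which all genes share and whose SD over the arrays was 0.13. With 1 fixed background for all arrays, the SE of Ifnar1 was 0.023 in place of 0.059. The test does not take in differences in affinity between probes. For that reason the levels of different genes are not ranked against each other, and a gene below background is not shown to be absent.

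Of the 9 genes, 7 were above background and 2 were below, beside 62.6% above over all genes. The 7 were the 3 receptor chains Ifnar1, Ifnar2 and Ifngr1, the transducers Stat2 and Irf9, and the antigen presentation genes B2m and Tap1. The 2 were Irf1, a further transducer that interferon also induces, and Ifit1, an antiviral target gene. Each of the 7 was above background in 6 of 6 arrays. Ifit1 was above it in 0 arrays and Irf1 in 1.

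**Figure D1:**
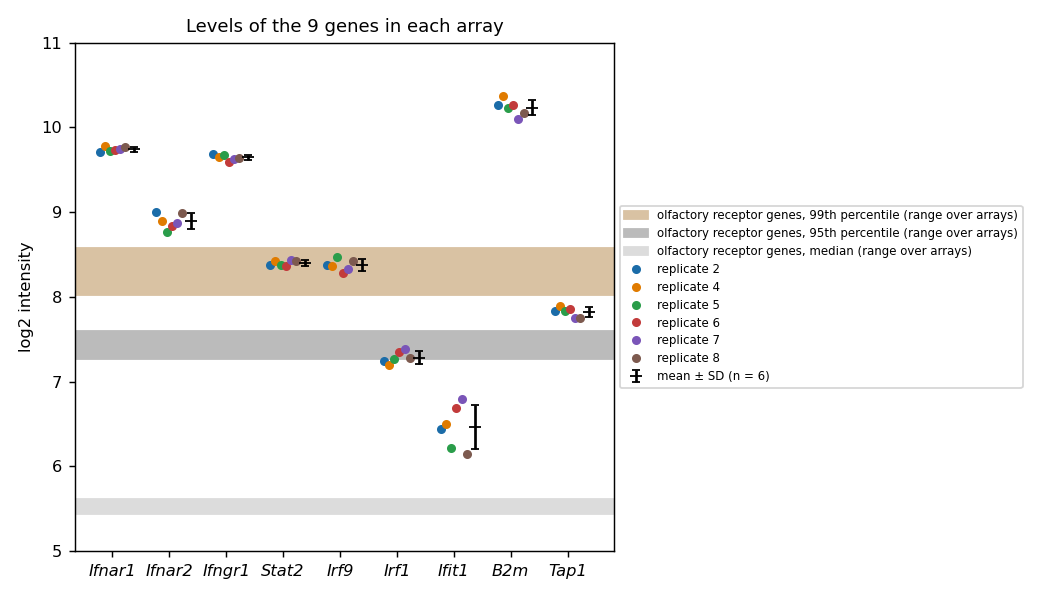
Log2 intensity of the 9 genes (y axis) in each of the 6 arrays (coloured points), with the mean and SD at the right of each gene. Shaded bands give the range over arrays of 3 levels of the olfactory receptor genes, their median, 95th and 99th percentile. The receptors and B2m lie above all bands, Stat2 and Irf9 lie within the band of the 99th percentile, Irf1 lies at or under that of the 95th, and Ifit1 lies between the median and the 95th.

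Ifnar1, Ifnar2 and Ifngr1 were each above background in 6 of 6 arrays. Ifnar1, the signalling chain of the type I receptor that pairs with Tyk2, had log2 intensities of 9.70, 9.78, 9.72, 9.73, 9.75 and 9.77 in replicates 2, 4, 5, 6, 7 and 8. Its highest and lowest arrays, replicates 4 and 2, differed by 1.06-fold, and every value lay over the highest background of 7.60. The mean was 9.74 ± 0.030 (SD, n = 6), with a distance of 2.25 ± 0.059 (SE, adjusted p = 5.57e-12, limma), or 4.77-fold over background.

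Ifnar2, the chain that binds type I interferon most tightly and associates with Jak1, had log2 intensities of 9.0, 8.89, 8.77, 8.84, 8.88 and 8.99 in the same order of replicates. Replicates 2 and 8 were high and replicate 5 was low, 1.17-fold below the highest. The mean was 8.89 ± 0.089 (SD, n = 6) and the distance 1.41 ± 0.071 (SE, adjusted p = 2.09e-09, limma).

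Ifngr1, the chain that binds interferon gamma, had log2 intensities of 9.69, 9.65, 9.67, 9.60, 9.63 and 9.64 in replicates 2, 4, 5, 6, 7 and 8. The arrays lay within 1.06-fold of each other, with replicate 2 the highest and replicate 6 the lowest. The distance was 2.16 ± 0.057 (SE, adjusted p = 6.0e-12, limma). Over the list of 6 receptor chains, 5 were above background and 1 was below, beside 62.6% above and 32.9% below over all genes. Ifngr2, the second chain for interferon gamma, had a distance of 2.67 ± 0.053, and Il10rb, a chain shared by the receptors of interferon lambda and interleukin 10, had 2.23 ± 0.046 (SE). Ifnlr1, the chain particular to interferon lambda, was below background with a distance of -0.32 ± 0.045 (SE, adjusted p = 2.74e-05, limma).

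The transducers Stat2 and Irf9, both parts of ISGF3, were above background by less than 1 log2 unit. Stat2 had log2 intensities of 8.37, 8.42, 8.38, 8.37, 8.44 and 8.42 in replicates 2, 4, 5, 6, 7 and 8, a range of 1.05-fold. Irf9, the DNA-binding part of the complex, had 8.38, 8.36, 8.47, 8.28, 8.33 and 8.43 in the same order, with replicate 5 the highest and replicate 6 the lowest. Neither gene overlapped the background of any array. The distance was 0.91 ± 0.058 for Stat2 (adjusted p = 1.85e-08) and 0.89 ± 0.062 for Irf9 (adjusted p = 4.59e-08), with SE from limma. Both calls depended on the definition of background. With the 99th percentile in place of the 95th, the distances were 0.030 and 0.0042, with adjusted p of 0.761 and 0.966 in limma.

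Of the 12 kinases, STATs and IRFs of the list, 10 were above background and 2 below, beside 62.6% and 32.9% over all genes. The median distance of the list was 1.04, and that of all genes 0.77. Jak1, the kinase shared by the interferon receptors, had a distance of 2.68 ± 0.069, and Irf8, a factor best known from cells of the immune system, had 1.92 ± 0.047 (SE). The 2 below background were Irf1 and Irf7, the factor that amplifies the type I response, at -1.02 ± 0.044 (SE, adjusted p = 4.93e-10, limma).

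Irf1 had log2 intensities of 7.24, 7.19, 7.26, 7.35, 7.38 and 7.27 in replicates 2, 4, 5, 6, 7 and 8. Replicates 6 and 7 were the highest, and the arrays lay within 1.14-fold of each other. The gene was under the background of its array in every replicate except 8, where it passed by 0.0082 on the log2 scale and where the background itself was lowest. The mean distance was -0.21 ± 0.053 (SE, adjusted p = 0.00286, limma). The mean level of 7.28 was nevertheless above 92.3% of olfactory receptor genes. Against the 95th percentile of 198 vomeronasal and taste receptor genes the distance of Irf1 was 0.35 and its direction turned, so that its place relative to background rests on the genes that define it.

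Ifit1, which encodes an RNA-binding antiviral protein and is among the most strongly induced targets of type I interferon, was below background in all 6 arrays. Its log2 intensities were 6.44, 6.49, 6.21, 6.68, 6.80 and 6.14 in replicates 2, 4, 5, 6, 7 and 8. Replicates 6 and 7 were high and replicates 5 and 8 low, with 1.57-fold between the extremes. The mean was 6.46 ± 0.26 (SD, n = 6) and the distance -1.03 ± 0.073 (SE, adjusted p = 5.02e-08, limma), which places the gene 2.04-fold under background. The level was above 79.9% of olfactory receptor genes, and it exceeded their median by 0.90. The distance stayed negative with vomeronasal and taste receptor genes as background.

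Ifit2 and Ifit3, relatives of Ifit1 that interferon also induces, were below background as well. The former had log2 intensities of 6.12, 6.09, 5.91, 5.99, 5.74 and 5.91 and the latter had 6.56, 5.94, 6.40, 6.46, 6.0 and 6.72 in replicates 2, 4, 5, 6, 7 and 8. Both were under the background of the array in all 6 replicates, so no meaning is drawn from their order over the arrays, nor from that of Ifit1. Ifit3 has a near-identical copy in the mouse genome, so its value is uncertain as to which gene it measures.

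Among the 32 interferon-induced targets matched to the table, 8 were above background, 23 below and 1 neither, and 25.0% above compares with 62.6% over all genes. The median distance of the list was -0.72, beside 0.77 over all genes. Rtp4 and Irgm1, an interferon-induced GTPase, had distances of -1.70 ± 0.050 and -1.61 ± 0.056 (SE). Mx1, Mx2, Oas2, Oas3, Rsad2, Gbp2 and Ifi44, all widely used as signs of an interferon response, were below it as well. Those above background were Ifitm3, an antiviral membrane protein, at 2.85 ± 0.066, Ifi35 at 1.24 ± 0.043 (SE), Isg20, Bst2, Ifi27, Zbp1, Usp18 and Cxcl10, the last at 0.14 ± 0.058 (adjusted p = 0.0399, limma). Oasl2 passed in neither direction, with an adjusted p of 0.345 in limma. With the background at the 99th percentile, 4 of the 32 were above it, beside 8563 of all 19613 genes. At the median all 32 were, beside 18054 of all genes.

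**Figure D2:**
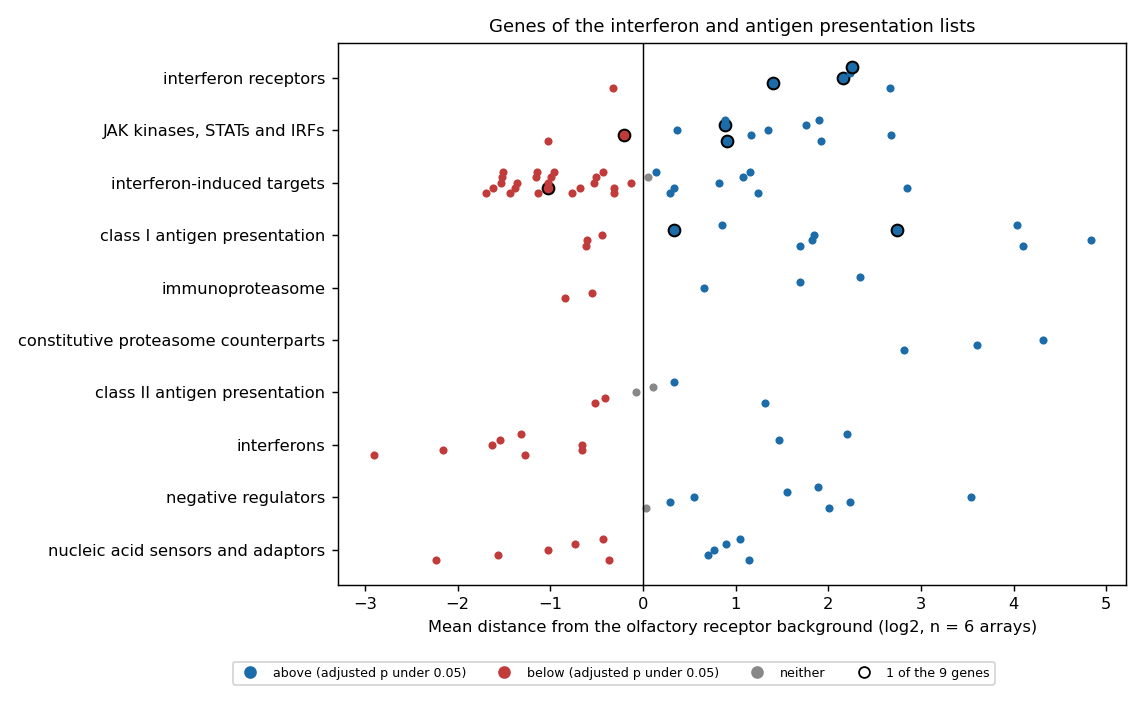
Mean distance from background over the 6 arrays (x axis, log2) for each gene of 10 lists (rows, with small vertical offsets to separate points); blue genes were above, red below and grey neither, and black rims mark the 9 genes. Receptors, kinases and STATs lie mostly to the right of 0, and 23 of 32 induced targets lie to the left.

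Replicate 8 had the lowest level for 15 of the 23 induced targets below background, or 65.2%. Over all 6450 genes below background it had the lowest level for 53.6%. The difference between these shares was not tested, nor was the part of the low background of this array in the value of Ifit1. Of the 8 induced targets above background, replicate 8 was the lowest for 4, beside 25.3% of all genes above background.

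In antigen presentation, B2m and Tap1 were both above background. B2m, the invariant light chain of class I molecules, had log2 intensities of 10.26, 10.37, 10.22, 10.27, 10.10 and 10.17 in replicates 2, 4, 5, 6, 7 and 8. Replicate 4 was high and replicates 7 and 8 were low, with 1.21-fold between the extremes. The mean was 10.23 ± 0.091 (SD, n = 6) and the distance 2.74 ± 0.063 (SE, adjusted p = 1.90e-12, limma), 6.70-fold over background.

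Tap1, a part of the transporter that carries peptides into the endoplasmic reticulum for loading on class I molecules, had log2 intensities of 7.84, 7.89, 7.83, 7.86, 7.74 and 7.75 in the same order. As for B2m, replicate 4 was the highest and replicates 7 and 8 were the lowest. The distance of Tap1 was 0.33 ± 0.055 (SE, adjusted p = 0.000124, limma), or 1.26-fold over background, and it was above in 6 of 6 arrays. When the 99th percentile was used, the distance turned to -0.55.

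Of the 10 other genes in the class I list, 7 were above background and 3 below, beside 62.6% and 32.9% over all genes. With B2m and Tap1 the median distance was 1.76. Calnexin (Canx) and calreticulin (Calr), general chaperones of the endoplasmic reticulum, had distances of 4.83 ± 0.057 and 4.10 ± 0.064 (SE). The class I heavy chains H2-K1 and H2-D1 had 1.82 ± 0.049 and 1.84 ± 0.050 (SE), although genes of this family are near-identical and the signal of one may include others. Below background were Nlrc5, the transactivator of class I genes, at -0.62 ± 0.043, Erap1, which trims peptides, at -0.61 ± 0.073, and Tap2, the partner of Tap1 in the transporter, at -0.44 ± 0.045 (SE). Tap2 had log2 intensities of 7.09, 7.0, 7.09, 7.21, 7.16 and 6.75 in replicates 2, 4, 5, 6, 7 and 8, under the background of the array each time.

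Psmb8 and Psmb9, catalytic subunits of the immunoproteasome that interferon gamma induces, were below background at -0.85 ± 0.054 and -0.55 ± 0.044 (SE). Psmb9 and Tap1 are transcribed away from each other from neighbouring starts, and their promoter windows shared 275 bases. Tap1 was above background in 6 of 6 arrays and Psmb9 in 0. With the 99th percentile as background the distance of Tap1 was -0.55. Probes differ in affinity, so the levels of Tap1 and Psmb9 were not compared with each other. The third such subunit, Psmb10, was above background at 0.66 ± 0.054, as were the proteasome activator subunits Psme1 at 2.34 ± 0.058 and Psme2 at 1.70 ± 0.053 (SE). All 3 constitutive counterparts of the catalytic subunits were above background, with Psmb5 at 4.31 ± 0.056 and Psmb7 at 3.61 ± 0.056 (SE). Of the 5 immunoproteasome genes, activator subunits counted in, 3 were above background and 2 below, beside 62.6% and 32.9% over all genes.

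**Figure D3:**
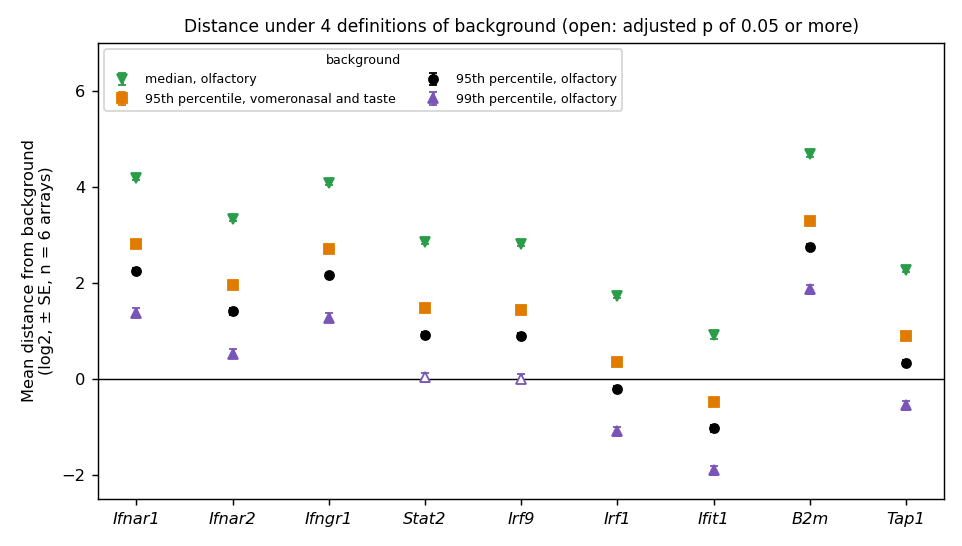
Mean distance of the 9 genes (y axis, log2, with SE over 6 arrays) from background defined in 4 ways. Filled symbols passed an adjusted p of 0.05 and open ones did not. Ifnar1, Ifnar2, Ifngr1 and B2m were above all 4 levels, Stat2 and Irf9 met the 99th percentile, and the direction of Irf1, Ifit1 and Tap1 turned under at least 1 of them.

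Of 10 interferon genes in the list, 8 were below background, beside 32.9% over all genes. These were 7 type I genes and Ifng, among them Ifna4 at -2.91 ± 0.079, Ifna1 at -2.16 ± 0.098 and Ifnb1 at -1.27 ± 0.095, with Ifng at -0.66 ± 0.043 (SE). The 2 above were Ifnl2 at 1.47 ± 0.049 and Ifnl3 at 2.20 ± 0.063 (SE). These are a near-identical pair of interferon lambda genes, so that the signal of either is uncertain. Of 8 negative regulators, 7 were above background and 0 below, beside 62.6% and 32.9% over all genes. Pias1, an inhibitor of STAT proteins, had a distance of 3.54 ± 0.060, and Ptpn11, a phosphatase, had 2.23 ± 0.056 (SE). Over the 93 pathway genes other than the 9, 46 were above background, or 49.5% beside 62.6% over all genes, 43 were below and 4 were neither.

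All 6 motor neuron markers were above background, from Mnx1 at 0.99 to Isl1 at 2.85. So were all 6 markers of neurons in general, beside 62.6% over all genes. A call above background does not by itself identify a cell type. Markers of other cells were checked because these genes are used widely outside neurons, and bulk arrays cannot tell fewer cells of a type from less RNA per cell. Of 8 markers of microglia and macrophages 4 were above, namely Cd68 at 0.82, Itgam at 0.56, Fcer1g at 0.50 and Csf1r at 0.25. The other 4 were below, namely Ptprc, found on white blood cells in general, at -0.52, Aif1 at -0.92, Cx3cr1 at -0.24 and Tyrobp at -0.16. Of 7 lymphocyte markers 1 was above, of 3 red blood cell markers 0, of 5 endothelial markers 1, of 6 markers of fibroblasts and mesenchyme 4, and of 5 pluripotency markers 2. The pluripotency markers above were Nanog at 1.45 and Tdgf1 at 0.90. Dppa5a was below at -0.38, and Pou5f1 and Zfp42 passed in neither direction. In the list of fibroblasts and mesenchyme, Dcn was at 4.52, Col1a1 at 1.15, Col3a1 at 0.78, Col1a2 at 0.73, Pdgfra at -1.10 and Lum at -1.78. The list of microglia and macrophages had a mean level between 7.37 and 7.62 over the arrays. The part of each cell type in the levels of B2m, Irf8 or the receptors was not tested.

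The spread of the 9 genes was read against genes of like level, in 20 bins of about 980 genes. Stat2, Ifnar1 and Ifngr1 varied little. Their SDs of 0.031, 0.030 and 0.032 exceeded those of 2.14%, 4.90% and 6.94% of the genes in their bins, whose median SDs were 0.088 for Stat2 and 0.067 for the receptors. Ifit1 and B2m were among the more variable genes of their bins, although Ifit1 was under background in every array. The SD of 0.26 for Ifit1 exceeded 88.7% of its bin, with a median of 0.15, and the SD of 0.091 for B2m exceeded 82.6%, with a median of 0.060. Ifnar2 was at 66.5%, Irf9 at 31.8%, and Irf1 and Tap1 at 11.2% each. Under median centring of the arrays the SD of Ifnar1 was 0.048 and that of Stat2 was 0.047.

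**Figure D4:**
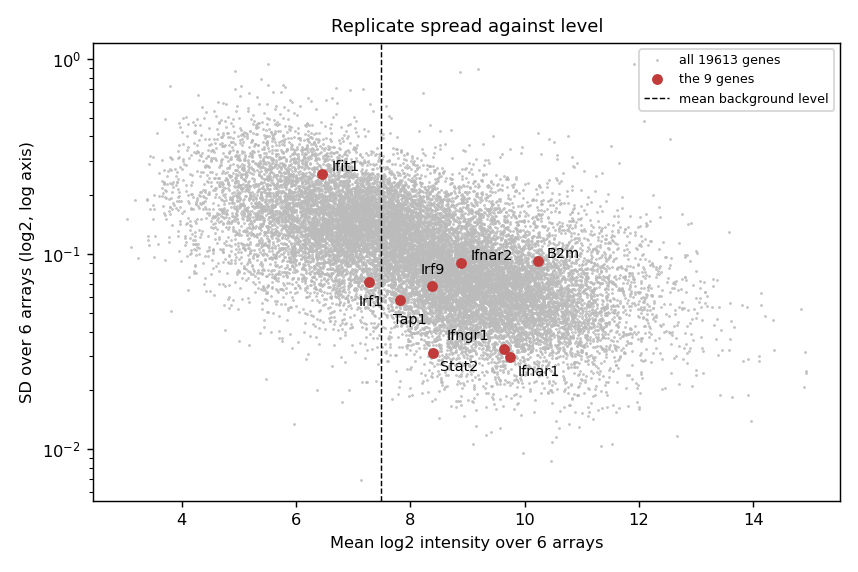
SD over the 6 arrays (y axis, log scale) against mean log2 intensity (x axis) for all genes (grey) and the 9 genes (red); the dashed line is the mean background level. Stat2, Ifnar1 and Ifngr1 lie at the lower edge of genes of their level, and Ifit1 and B2m in the upper part.

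The 7 genes above background did not rise and fall as 1 group. The mean of the 7 ranged from 8.98 to 9.05 over the arrays, with an SD of 0.027. Averaging over genes lowers such an SD, so it does not tell whether the 7 moved together. Replicates 2 and 4 had 5 of the 7 above their own mean, replicates 6 and 7 had 2, replicate 5 had 3 and replicate 8 had 4. For 0 of the 9 genes did replicate 8 hold the highest level, and for 1, Ifit1, it held the lowest, although its background stood lowest. That value, like every other of Ifit1, was under the background of its array.

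**Figure D5:**
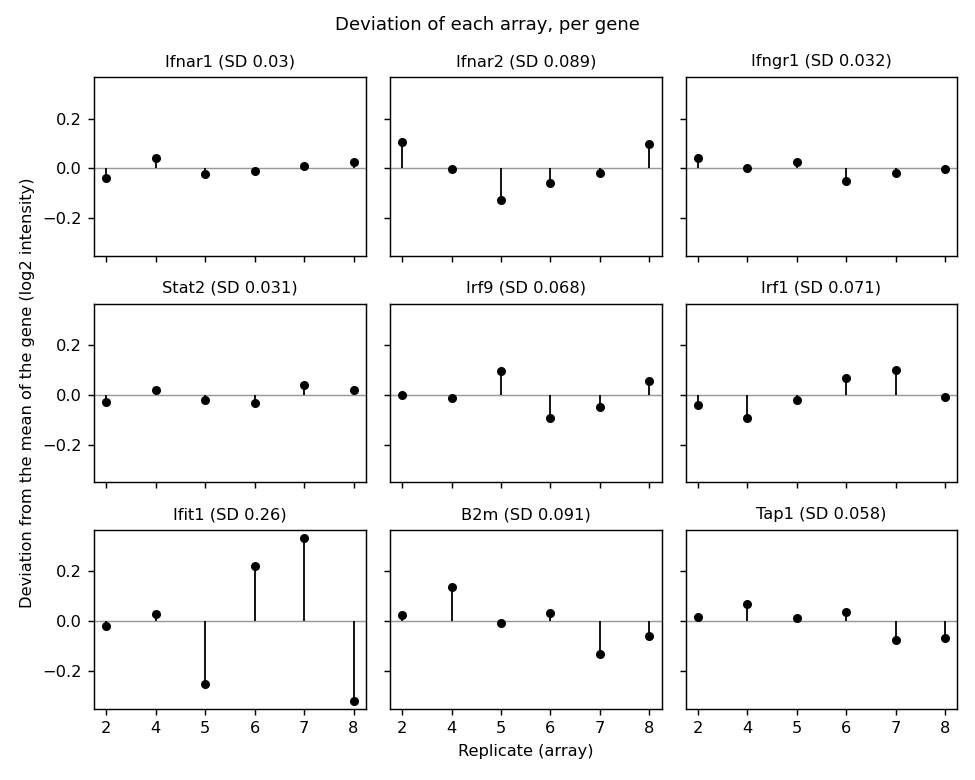
Deviation of each array (x axis, replicate number) from the mean of the gene (y axis, log2 intensity) for the 9 genes on a common scale. Ifit1, under background in every array, has the widest deviations. B2m and Tap1 are highest in replicate 4 and lowest in replicates 7 and 8, and Ifnar1, Ifngr1 and Stat2 stay close to 0.

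The genes most like B2m, Ifnar2 and Irf9, the 3 genes above background with the largest SD, were sought among all 12278 genes above background. Likeness was the root mean square difference between values centred on the mean of each gene over the 6 arrays. Closest to B2m were Fam135a, at 0.014, and Plk3, at 0.020 on the log2 scale, compared with an SD of 0.091 for B2m. Closest to Ifnar2 were Prmt10 at 0.012 and Gria2, a glutamate receptor subunit, at 0.017. Closest to Irf9 were the gene the table calls X2610301G19Rik, at 0.011, and Prmt2, at 0.012. These are descriptions over 6 arrays, and no test was made of them.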

How the data were processed

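Gene expression was measured on 6 exon arrays of 1 group, taken from the sample titles. The deposited values are linear intensities, 1 per gene and array. Per the methods, the authors made them by Robust Multi-array Averaging (RMA) and averaged all exons of a gene. RMA and Affymetrix Expression Console are named in the submitters' processing notes. The genome build and the arrays normalized together are not given in the sources used here. Precision is limited by the number of arrays. No 2 arrays held identical values, and the table held 0 columns of other samples.

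Names altered by the table were restored for 568 genes with a RefSeq gene table (GRCm38.p6), used for names alone. Of 152 list genes 148 matched, 6 of them by a synonym, and Isg15, Oas1a, H2-DMb1 and Hba-a1 were not analysed here. Intensities were taken to log2 with no pseudocount or filter. The distance from background was fitted with an intercept in limma 3.58.1 (R 4.3.3), with eBayes and a two-sided test, adjusted over all genes. The fit was tested on simulated data drawn for each gene separately. These held no background level, so the test did not cover the error that its subtraction brings. Summaries were made in Python 3.11.15. Promoters are RefSeq sequences, and all 9 genes matched.

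The 9 genes and the lists were chosen with earlier results of these data known. In each list the genes named were the members and up to 2 farthest from background in each direction. Tap2, Psmb10, the Ifit genes, the remaining induced targets, Ifnb1, Ifng, H2-K1, H2-D1, the marker genes, and the promoters of B2m and Stat2 were chosen after their values were seen. Usp18, Ifih1 and Ddx58 are in 2 lists. Alternatives changed the background percentile, the background genes, the normalization, the variance prior and the arrays included.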

Additional observations from a re-analysis of the deposited data

Results flagged for a closer look

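One set of values had a single array far from the others. The mean of the 11 nucleic acid sensors and adaptors was lowest in replicate 8, at a log2 intensity of 7.24, and 0.75 of the range over the 6 arrays lay between this value and the next lowest, which is past the 95% limit of Dixon's ratio. Among 20 sets of 6 values screened, about 1 would be picked out by chance, and the values of the 9 genes were not. The background level was lowest in the same array at 7.26, and its part in the low mean was not tested.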

How the results depend on the processing

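Of the recomputed counts, 168 stayed within 1.5 times the value given and 14 did not. Among the 168 was every count with 1 array left out. With the background at the 99th percentile, the count above it was 4 of the 9 genes, 6 of the kinases, STATs and IRFs, 4 of the induced targets, 1 of the class II genes and 1 of the sensors and adaptors. Over all 19613 genes that count was 8563. Stat2 and Irf9 no longer passed, and the distance of Tap1 was -0.55. With the background at the median, 0 of the 9 genes and 1106 of all genes were below it. The count above it was then 18054 of all genes. Among the lists it was 32 induced targets, 5 immunoproteasome genes, 6 class II genes, 7 interferons and 10 sensors and adaptors. The distances of Irf1 and Ifit1 were 1.73 and 0.90. With vomeronasal and taste receptor genes, 1 of the 9 genes was below background, beside 4320 of all genes, and the distance of Irf1 was 0.35. Above background were then 5 class II genes, beside 14158 of all genes. These shifts follow from moving the background level. A fixed background, quantile normalization, median centring and an intensity trend in the variance prior turned no direction and ended no call among the 9 genes. No paired analysis was possible because there is 1 group. A gene near background cannot be told from it by these arrays.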

Other observations

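Sensors of foreign nucleic acid send signals that lead to interferon production. Of 11 sensors and adaptors 5 were above background and 6 below, beside 62.6% and 32.9% over all genes. The receptors Tlr7 and Tlr3 were at -2.24 ± 0.072 and -1.57 ± 0.056, whereas the adaptor Mavs was at 1.14 ± 0.059 and the kinase Tbk1 at 1.04 ± 0.067 (distance on the log2 scale, SE, n = 6 arrays).

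Of 6 class II antigen presentation genes 2 were above background, 2 below and 2 neither, beside 62.6% above and 32.9% below over all genes. The count above ranged from 1 to 6 over the alternatives, and that of all genes from 8563 to 18054. H2-DMa, which helps to load class II molecules, was at 1.32 ± 0.050 and Cd74, the invariant chain, at 0.34 ± 0.050, while the transactivator Ciita was at -0.41 ± 0.043 and H2-Ab1 at -0.51 ± 0.059 (distance, SE, n = 6 arrays).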
